A study of Mus musculus with 18 samples.

Results

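CD8 T cells sorted from bone marrow were compared between pMT-10 mice and C57BL/6 mice that had both drunk zinc-enriched water for 30 days. The comparison used 3 libraries a side, 6 of the 18 libraries of the series, and the 21920 autosomal genes of a panel of 23930. The pMT-10 strain carries an interleukin-10 (IL-10) transgene behind a metallothionein promoter, which zinc switches on, and the comparison asks how CD8 T cells in the marrow differ when IL-10 is overexpressed. The labels do not name the cells that make the transgenic IL-10, and no age, sex or C57BL/6 substrain is given. The control group carries no transgene but drank the same zinc, so zinc itself and the sequencing chip were shared by the groups. A further group of 3 CD8 libraries from pMT-10 mice on control water carries the transgene without zinc and was sequenced on another chip, and CD4 T cell libraries exist for each kind of mouse.

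IL-10 is a cytokine that signals through the IL-10 receptor, the kinases JAK1 and TYK2 and the transcription factor STAT3. It restrains macrophages and dendritic cells, while on CD8 T cells it can support proliferation, cytotoxic function and interferon gamma production. CD8 T cells that have been activated make granzymes, chemokines and interferon gamma. When stimulation lasts, they also carry coinhibitory receptors and transcription factors such as TOX, a state known as exhaustion.

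RNA was read with a targeted panel that amplifies 1 short stretch of each transcript, so levels of different genes cannot be compared, and counts were scaled to the effective library total and given as CPM. Total counts in the 6 libraries ran from 10546798 to 15214859. Y-linked genes summed to 268 to 421 CPM in the C57BL/6 libraries and to at most 0.683 CPM in the pMT-10 libraries, where Xist stood at 806 to 1000 CPM, so sex differed together with strain and only autosomal genes are reported. Strain, sex and the induced transgene cannot be told apart by this comparison alone. In RNA from a whole sorted population, fewer cells of a type and less RNA per cell cannot be told apart either. The sum of 8 CD8 T cell markers stood at 8060 to 10000 CPM in zinc-fed pMT-10 and 10100 to 10500 CPM in zinc-fed C57BL/6, and that of 2 CD4 T cell markers at 2.64 to 5.93 and 4.67 to 8.58 CPM. Natural killer (NK) cell markers summed to 29.3 to 56 against 61 to 90.3 CPM, erythroid markers to 6.97 to 14.8 against 4.38 to 6.69 CPM, and neutrophil markers to 0.341 to 15 against 0.268 to 1.5 CPM, with Ngp, Ly6g and Mmp8 at 0 in all 6 libraries. Monocyte and macrophage markers summed to 18.9 to 35.8 against 6.49 to 15.6 CPM, mostly from Cd68, while Fcgr1 and C1qa were at 0. B cell markers summed to 25.7 to 45.9 against 43.4 to 53.1 CPM, with Ms4a1, Pax5, Ebf1 and Igll1 at 0, so the sum came from other members of that list. Plasma cell markers summed to 95.5 to 99.5 against 67.8 to 116 CPM. Stroma and endothelium markers summed to 226 to 307 against 322 to 398 CPM, all from members other than Col1a1, Cdh5 and Kdr, which were at 0. Dendritic cell markers summed to 1.37 to 5.65 against 0.937 to 1.4 CPM, with Xcr1, Clec9a and Cd209a at 0. Exact two-sided permutation tests of these sums gave p of at least 0.1, the smallest that 3 against 3 allows.

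Of 10801 autosomal genes tested, 966 (8.94%) were called by edgeR's quasi-likelihood test at a Benjamini-Hochberg adjusted p under 0.05. Of these, 627 (5.81%) lay above the controls and 339 (3.14%) below them. "Rose" and "fell" are used below only for called genes, and each adjusted p comes from this test unless another is named. The counts of each list below are to be read against these shares. The lists were chosen with earlier results of these data known, so that reading is a description and not a test. With a change of at least 2-fold there were 406 higher (3.76%) and 78 lower (0.722%), together 484 (4.48%). At 4-fold or more there were 235 higher and 19 lower genes, and at 8-fold or more 140 and 11. The median log2 difference of all autosomal genes was near 0, at -0.0066. The 3 libraries of a group lay wholly above or below those of the other for 2561 genes (23.7%), with pMT-10 higher for 1319 (12.2%) and lower for 1242 (11.5%). With library size as the only scaling the call count was 943, with 710 higher and 233 lower, so the share of higher calls went from 64.9% to 75.3%. Leaving out 1 library gave 571 calls (without zinc-fed C57BL/6 replicate 3) to 885 calls.

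**Figure D1:**
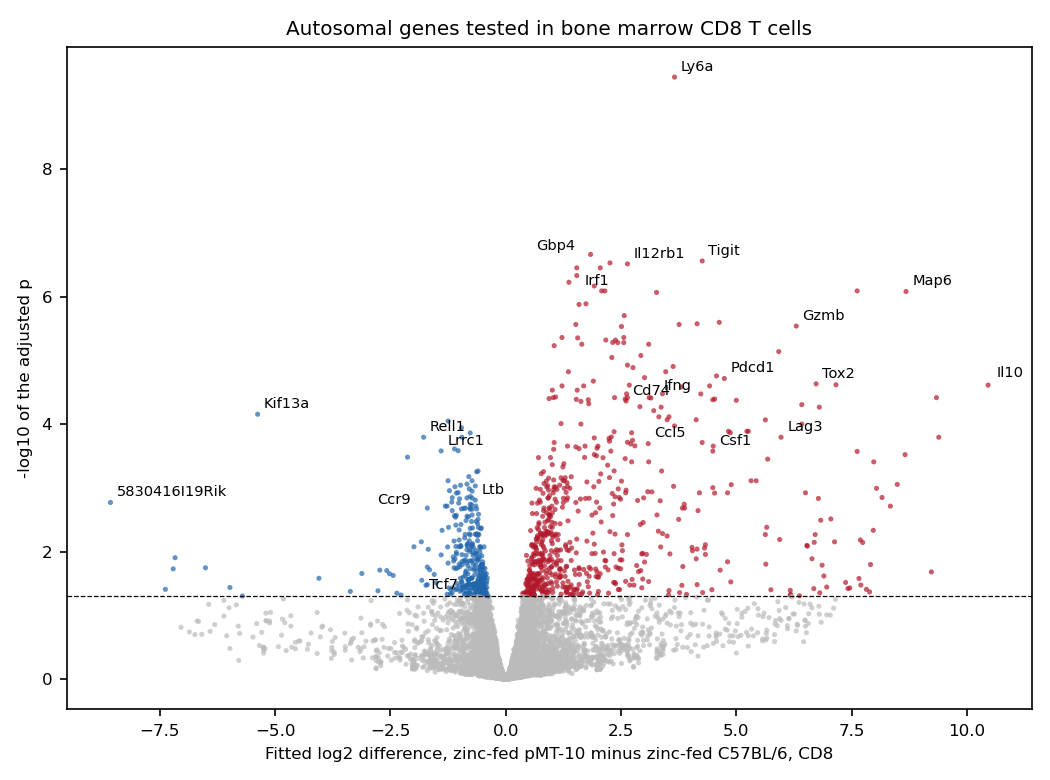
Each point is 1 of the 10801 autosomal genes tested, placed by its fitted log2 difference (zinc-fed pMT-10 minus zinc-fed C57BL/6, CD8 cells) and by -log10 of its adjusted p. Red points are the 627 genes called higher, blue points the 339 called lower, grey points were not called, and the dashed line marks an adjusted p of 0.05. Genes without a count in 1 group are placed by a fitted value that depends on the prior count.

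Genes of the interferon-gamma response gave the most complete change among the 27 functional lists. Of 15 members tested, 14 (93.3%) rose and none fell, with a median log2 difference of 1.52. Irf1, a transcription factor that interferon gamma induces early, stood at 1620, 1480 and 1450 CPM in zinc-fed pMT-10 replicates 1 to 3 and at 517, 525 and 516 CPM in zinc-fed C57BL/6 (log2 1.54, SE 0.14, adjusted p = 3.54e-07). The spread within each group was far smaller than the gap between them. Gbp4, a guanylate-binding protein of cell-autonomous defence, stood at 1350, 1310 and 1060 against 361, 386 and 289 CPM (adjusted p = 2.18e-07). Gm12250, an immunity-related GTPase gene, stood at 401, 364 and 412 against 90.4, 78.8 and 77.3 CPM (log2 2.26, SE 0.2, adjusted p = 2.96e-07), and Igtp, which lies close to it on chromosome 11, at 370, 306 and 359 against 91.2, 66 and 87.8 CPM (log2 2.08). In none of these did the groups overlap.

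Irf8, a factor that interferon gamma also induces, rose by a log2 of 2.56, Gbp2 by 1.55, Gbp3 by 1.37 and Cd274, the gene of the inhibitory ligand PD-L1, by 1.92. Gbp5, Gbp7, Gbp9, Irgm1 and Nlrc5, the transactivator of MHC class I genes, rose by 1.03 to 1.52. Irf9 changed least (log2 0.47, adjusted p = 0.035), and its call ended without zinc-fed C57BL/6 replicate 1 (adjusted p = 0.124) or 3 (0.117), or zinc-fed pMT-10 replicate 1 (0.153) or 3 (0.0516). Under other settings it ended with only these 2 groups fitted (adjusted p = 0.125), with the 12 libraries of zinc-fed mice fitted (0.0542) or with no filter on low counts (0.0959). Ciita, the class II transactivator, stood at 1.07 against 0.372 CPM on average and was not called (adjusted p = 0.588). All of its control counts came from zinc-fed C57BL/6 replicate 1.

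The promoters of these genes are where interferon-activated STAT and IRF factors are known to bind, at the gamma-activated site (GAS, searched as TTCNNNGAA) and the interferon-stimulated response element (ISRE, searched on both strands as GAAA, any 2 bases and GAAA). RefSeq promoters of GRCm38.p6 (250 bases before to 50 after the start) were matched for 11 of the 14 genes that rose, with 15 promoters. GAS letters were present in 6 of the 15 promoters (40.0%), each of another gene, and ISRE letters in 7 (46.7%), against 8.3% and 3.4% of all 32851 promoters in the table. Of the promoters of autosomal genes tested, 7.0% held GAS letters and 3.1% ISRE letters, and of those of genes called higher 9.3% and 5.6%. ISRE letters were not particular to this list. They were present in all 4 promoters matched for type I interferon-stimulated genes called higher, where GAS letters were absent. The 4 promoters matched for antigen presentation genes called higher held neither. A match is a description of letters and not a binding site. Those of Irf1 (chr11:53769764-53770063, plus strand), Gbp2 (chr3:142620413-142620712, plus strand), Igtp (chr11:58199306-58199605, plus strand) and Gm12250 (chr11:58183593-58183892, plus strand) are shown because they hold GAS letters alone, ISRE letters alone, 1 of each, and 1 GAS with 2 ISRE matches. Capitals mark the matches, and an ISRE on the other strand reads TTTC, any 2 bases and TTTC.
Irf1: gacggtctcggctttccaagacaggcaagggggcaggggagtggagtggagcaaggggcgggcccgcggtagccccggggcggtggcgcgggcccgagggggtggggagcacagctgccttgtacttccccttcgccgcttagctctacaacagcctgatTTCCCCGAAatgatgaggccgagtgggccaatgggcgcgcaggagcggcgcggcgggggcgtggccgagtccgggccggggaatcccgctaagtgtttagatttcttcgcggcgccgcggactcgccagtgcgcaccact
Gbp2: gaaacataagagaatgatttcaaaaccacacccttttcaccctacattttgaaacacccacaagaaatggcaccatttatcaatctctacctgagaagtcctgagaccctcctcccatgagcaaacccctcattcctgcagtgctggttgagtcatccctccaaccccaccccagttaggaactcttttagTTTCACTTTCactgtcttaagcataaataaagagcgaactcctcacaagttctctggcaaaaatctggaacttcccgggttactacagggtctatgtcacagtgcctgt
Igtp: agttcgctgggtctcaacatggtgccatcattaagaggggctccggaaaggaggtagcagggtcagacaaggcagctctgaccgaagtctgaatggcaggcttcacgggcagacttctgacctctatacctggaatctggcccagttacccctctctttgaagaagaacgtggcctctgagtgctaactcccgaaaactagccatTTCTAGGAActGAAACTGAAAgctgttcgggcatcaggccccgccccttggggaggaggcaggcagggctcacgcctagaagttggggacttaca
Gm12250: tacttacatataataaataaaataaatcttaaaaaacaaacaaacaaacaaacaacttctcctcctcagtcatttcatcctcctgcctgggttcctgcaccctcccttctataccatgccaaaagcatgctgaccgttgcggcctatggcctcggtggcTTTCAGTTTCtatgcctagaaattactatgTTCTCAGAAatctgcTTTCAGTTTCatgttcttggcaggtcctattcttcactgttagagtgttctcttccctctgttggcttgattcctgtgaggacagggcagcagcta
The GAS match of Irf1 begins 90 bases before the start site. In Igtp the GAS match begins 45 and the ISRE match 34 bases before it, and in Gm12250 the GAS match lies between its ISRE matches, at 61 bases before the start.

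Of 20 antigen presentation genes tested, a group that interferon gamma is known to raise, 7 rose and none fell (median log2 0.42). Tap1, a subunit of the peptide transporter, stood at 444, 428 and 470 against 232, 316 and 207 CPM (log2 0.83, SE 0.15, adjusted p = 0.000859), and H2-Q4, a non-classical class I gene whose relatives can share reads, at 799, 669 and 821 against 446, 450 and 399 CPM (log2 0.82). The classical class I genes were not called, with H2-K1 at 8320 against 8760 CPM, H2-D1 at 2950 against 3190 CPM and B2m at 5600 against 5350 CPM on average (adjusted p 0.689 to 0.87). Cd74, the class II invariant chain, stood at 23.8, 36.3 and 25.3 against 6.26, 5.33 and 2.61 CPM (log2 2.61, SE 0.34, adjusted p = 4.35e-05). Dendritic cell markers summed to 1.37 to 5.65 CPM in zinc-fed pMT-10 and 0.937 to 1.4 CPM in zinc-fed C57BL/6, and their part in the Cd74 result was not tested.

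Of 31 type I interferon-stimulated genes, 7 rose and 1 fell (median log2 0.56). Zbp1, a sensor of Z-form nucleic acids, stood at 171, 152 and 154 against 61.8, 73.7 and 69.1 CPM (log2 1.22, SE 0.16, adjusted p = 2.52e-05). Stat2 and Mx1 rose by 1.03 and 1.14. Oas1a (19.2 against 17.1 CPM) and Usp18 (18.8 against 22.6 CPM), further type I targets, were not called. Ifit1 stood at 63 against 37.3 CPM (adjusted p = 0.1) and was called with only these 2 groups fitted (adjusted p = 0.0415), with the 12 libraries of zinc-fed mice fitted (0.0448), with no filter on low counts (0.00128) or by DESeq2 (0.049).

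Il10 itself (chromosome 1, 131019845 to 131024970, GRCm38) was read in all 3 zinc-fed pMT-10 libraries, at 22.4, 3.2 and 12.9 CPM, and had no count in zinc-fed C57BL/6 or in pMT-10 without zinc. Pooled over libraries it was at least 163-fold higher than the level that 3 counts in the C57BL/6 group would give, a limit that covers counting error only. The panel's amplicon does not tell transgene from endogenous transcripts. Il10ra, the ligand-binding receptor chain, stood at 311, 224 and 320 against 116, 67.1 and 114 CPM (log2 1.53, SE 0.21, adjusted p = 4.1e-05), with no overlap. Of 19 genes of the receptor and STAT3 pathway tested, 4 rose, among them Il10, the gene that the transgene carries, and none fell. The others that rose were Bcl3, an I-kappa-B family member (137, 125 and 121 against 39.9, 45.4 and 42.2 CPM, adjusted p = 1.33e-06), and Sbno2, a STAT3-induced corepressor (log2 0.94). Il10rb, Jak1 and Tyk2 were not called, at log2 -0.3, -0.15 and 0.17. Stat3 stood at 553 against 401 CPM (log2 0.46, adjusted p = 0.0519) and was called without zinc-fed pMT-10 replicate 2 (adjusted p = 0.00647), with library size as the only scaling (adjusted p = 0.0364), with upper-quartile scaling (0.0445) or by DESeq2 (0.0159). Socs3, its feedback inhibitor, stood at 2.74 against 0.861 CPM (adjusted p = 0.208).

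Both groups drank zinc, and the metallothionein genes Mt3 and Mt1 still differed. Mt3, which binds zinc and copper and is best known from brain, stood at 4.1, 1.79 and 5.93 against 0, 0 and 0.0669 CPM (adjusted p = 5.43e-05), the last a single count. Mt1 stood at 2.05, 3.11 and 4.17 against 0.172, 0.561 and 0.468 CPM (log2 2.93, adjusted p = 0.0199), a call that ended without zinc-fed C57BL/6 replicate 1 (0.0779) or 3 (0.0613) or zinc-fed pMT-10 replicate 3 (0.0636). Of 16 genes of metallothionein and zinc handling tested, 3 rose and none fell. The third was the zinc transporter Slc30a4 (log2 0.99), whose call ended without zinc-fed C57BL/6 replicate 1 (adjusted p = 0.0685). The metal sensor Mtf1 and the zinc exporter Slc30a1 were not called, at log2 -0.25 and -1.09.

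Cytokine genes moved in both directions. Of 18 tested, 4 rose and 3 fell. Ifng (interferon gamma) stood at 214, 155 and 351 CPM in zinc-fed pMT-10 and at 18.8, 5.79 and 8.97 CPM in zinc-fed C57BL/6 (log2 4.42, SE 0.49, adjusted p = 2.52e-05). The lowest pMT-10 library lay above the highest control. The ratio of the means was 21.5, and 32.5 without zinc-fed C57BL/6 replicate 1. Csf1, the growth factor of monocytes and macrophages, stood at 34.1, 7.62 and 48.5 against 0.515, 0.935 and 2.34 CPM (log2 4.49, SE 0.64, adjusted p = 0.000266). Its ratio of means was 23.8, and 41.5 without zinc-fed C57BL/6 replicate 3. Csf2, the granulocyte and macrophage factor, had no count in the pMT-10 libraries and averaged 0.468 CPM in the controls (adjusted p = 0.193). All of its control counts came from zinc-fed C57BL/6 replicate 3. Tnfsf10, the death ligand TRAIL, rose by 1.63. Flt3l, the growth factor of progenitors and dendritic cells, rose by 0.48 (adjusted p = 0.0272), a call lost without zinc-fed C57BL/6 replicate 1 (adjusted p = 0.0726) or 3 (0.11) or zinc-fed pMT-10 replicate 1 (0.153) or 2 (0.0564), and also with only these 2 groups fitted (adjusted p = 0.118), with the 12 libraries of zinc-fed mice fitted (0.0527) or with no filter on low counts (0.0652).

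Ltb, a subunit of lymphotoxin that shapes lymphoid tissue, fell from 867, 932 and 949 CPM in zinc-fed C57BL/6 to 615, 548 and 579 CPM (log2 -0.66, SE 0.13, adjusted p = 0.00156). Tgfb1 (log2 -0.47) and Tnfsf11 (log2 -3.12, from counts near 1 CPM) also fell. The call of Tgfb1 ended in each of the 6 fits without 1 library (adjusted p 0.0654 to 0.129), and that of Tnfsf11 without zinc-fed C57BL/6 replicate 2 (adjusted p = 0.0939) or 3 (0.0609) or zinc-fed pMT-10 replicate 1 (0.0903) or 3 (0.0912). These calls were also lost with only these 2 groups fitted for Tgfb1 (adjusted p = 0.0773), with library size as the only scaling for Tgfb1 (0.0701) or by limma-voom for Tnfsf11 (0.094). The ratio of the Tnfsf11 means was 0.121, and 0.181 without zinc-fed pMT-10 replicate 1, 0.181 without zinc-fed pMT-10 replicate 3 and 0.191 without zinc-fed C57BL/6 replicate 2. Tnf and Il2 stood at 1.18 against 1.82 and at 4.12 against 2.33 CPM and were not called.

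Of 8 chemokine genes tested, 4 rose and none fell (median log2 2.47). Ccl3 and Ccl4, which draw in T cells and monocytes, stood at 241, 135 and 310 against 5.75, 5.89 and 2.01 CPM and at 25.6, 15.5 and 25.5 against 0.686, 1.59 and 1.27 CPM (log2 5.68 and 4.23, adjusted p = 0.000355 and 3.37e-05). Ccl5, a chemokine of memory and effector cells, already stood at 630, 936 and 793 CPM in zinc-fed C57BL/6 and reached 6610, 5120 and 8350 CPM in zinc-fed pMT-10 (log2 3.09, SE 0.42). Every pMT-10 library lay above every control for these 3 genes. Ccl9 varied most, at 28.2, 0.941 and 6.22 CPM against 0, 0.0935 and 0 CPM, and was not called by limma-voom (adjusted p = 0.0758). Monocyte and macrophage markers were also higher in the pMT-10 libraries, with the values given above, and their part in the Ccl9 result was not tested. Xcl1, a chemokine for cross-presenting dendritic cells, stood at 37 against 74.5 CPM on average (adjusted p = 0.11) and was called with no filter on low counts (adjusted p = 1.96e-05) or by DESeq2 (0.047).

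Among 19 cytotoxic granule genes tested, 7 rose and none fell (median log2 0.66), and the lytic pore gene was not one of them. Gzmb, the killer protease granzyme B (chromosome 14, 56258836 to 56262334, GRCm38), stood at 1750, 913 and 2000 CPM in zinc-fed pMT-10 and at 14, 9.72 and 34.7 CPM in zinc-fed C57BL/6 (log2 6.3, SE 0.54, adjusted p = 2.9e-06). The ratio of means was 79.9, and 131 without zinc-fed C57BL/6 replicate 3. Gzmk stood at 207, 101 and 296 against 8.58, 5.98 and 12 CPM (log2 4.49, SE 0.7, adjusted p = 0.000995) and Gzma at 44.9, 12.4 and 19.5 against 1.72, 3.08 and 2.01 CPM (log2 3.5, adjusted p = 0.00571), with a ratio of means of 11.3, and 7.03 without zinc-fed pMT-10 replicate 1. Fasl, which triggers death through Fas, stood at 30, 8.75 and 38.6 against 5.66, 2.62 and 5.69 CPM (log2 2.46). No control library reached a pMT-10 library in these 4 genes.

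Serpinb9, which protects killer cells from their own granzyme B, rose by 0.76. Its call ended without zinc-fed C57BL/6 replicate 2 (adjusted p = 0.0518) or 3 (0.0659) or zinc-fed pMT-10 replicate 3 (0.0544). Stx11 and Rab27a, which serve granule release, rose by 2.44 and 0.62, and both calls ended without zinc-fed C57BL/6 replicate 3 (0.101 and 0.102), that of Stx11 also without zinc-fed pMT-10 replicate 3 (0.093) and by limma-voom (adjusted p = 0.089). Prf1, the pore-forming perforin, stood at 116, 45.6 and 138 against 66.2, 47.5 and 75.6 CPM (log2 0.66, adjusted p = 0.207). Without zinc-fed pMT-10 replicate 2 it was called (adjusted p = 0.0138), as it was with no filter on low counts (adjusted p = 0.012). Nkg7, a granule membrane protein gene, stood at 1320, 1150 and 1310 against 636, 809 and 708 CPM, so its groups did not overlap. It was not called over all 18 libraries (log2 0.81, adjusted p = 0.125) but was called with only these 2 groups fitted (adjusted p = 0.00482) or with no filter on low counts (1.66e-05).

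**Figure D2:**
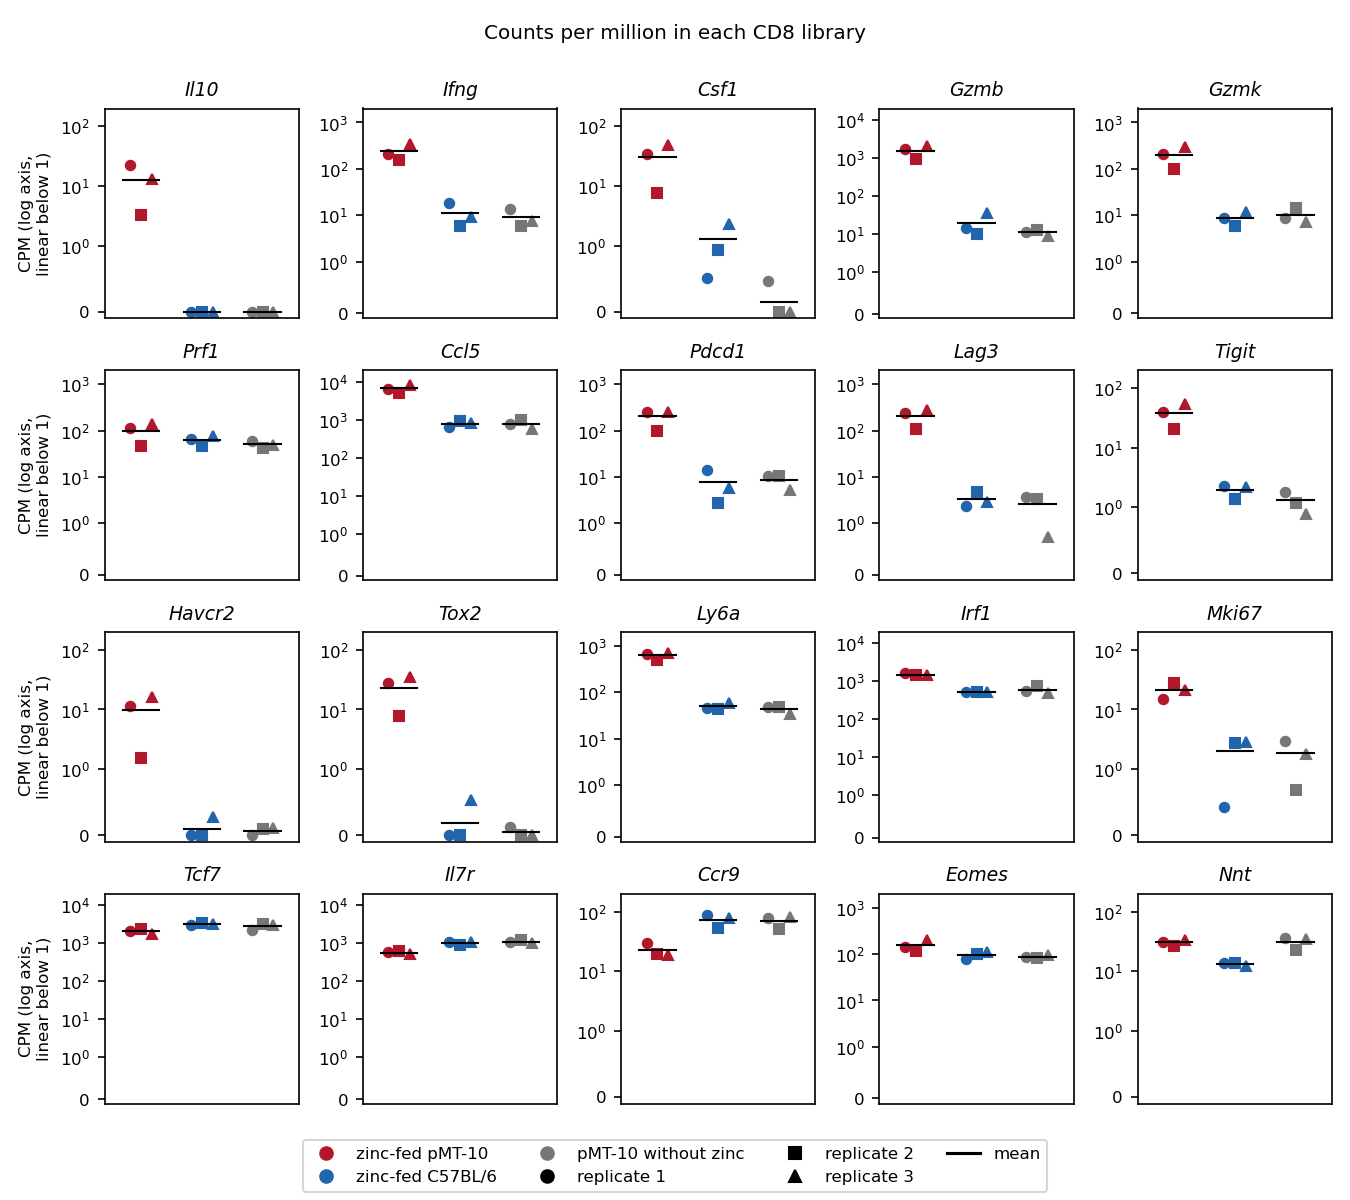
CPM of 20 genes in each of 9 CD8 libraries, on an axis that is logarithmic above 1 and linear below it. Points are libraries, shapes mark the replicate number, and bars mark the mean of 3. Zinc-fed pMT-10 libraries lie apart from both control groups for Il10, Ifng, Gzmb and Pdcd1, perforin (Prf1) overlaps between the groups, and Nnt lies above the zinc-fed C57BL/6 libraries in both pMT-10 groups.

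Coinhibitory receptors and their ligands had the highest median among the lists (log2 2.55). Of 18 tested, 13 (72.2%) rose and none fell, and all 13 changed by at least 2-fold. Pdcd1 (PD-1) stood at 258, 98.3 and 255 against 14.2, 2.8 and 5.82 CPM (log2 4.74, SE 0.5, adjusted p = 1.93e-05). Its ratio of means was 26.7, and 47.2 without zinc-fed C57BL/6 replicate 1. Lag3, a receptor for MHC class II, stood at 237, 107 and 279 against 2.4, 4.67 and 2.94 CPM (log2 5.97, SE 0.75). Tigit, a receptor for nectin-like ligands, stood at 39.8, 20.6 and 54.7 against 2.32, 1.4 and 2.21 CPM (log2 4.26, SE 0.36, adjusted p = 2.76e-07). Zinc-fed pMT-10 replicate 2 was the lowest of its group for each of these, and still lay above every control.

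Havcr2 (TIM-3), a marker of late exhaustion, stood at 11.3, 1.51 and 16.2 against 0, 0 and 0.268 CPM (log2 6.42, adjusted p = 0.0001), with 4 counts in the control group. Cd244 (2B4) stood at 29.8, 16.6 and 34.3 against 0.944, 0.28 and 3.15 CPM (log2 4.15), and Klrg1, a receptor of short-lived effector cells, at 11.7, 3.95 and 5.05 against 0.601, 0.0935 and 1.2 CPM (log2 3.31). The ratio of means of Havcr2 was 108, and 71.5 without zinc-fed pMT-10 replicate 3, 72.3 without zinc-fed C57BL/6 replicate 1 and 72.3 without zinc-fed C57BL/6 replicate 2. For Cd244 it was 18.4, and 43.9 without zinc-fed C57BL/6 replicate 3, and for Klrg1 10.9, and 7.11 without zinc-fed pMT-10 replicate 1 and 19.9 without zinc-fed C57BL/6 replicate 3. The remaining 7, Cd38, Entpd1, Cd101, Ctla4, Cd200r1, Cd274 and Cd200, rose by log2 1.29 to 3.27. Among these the ratio for Entpd1 was 9.31, and 5.94 without zinc-fed pMT-10 replicate 3, and for Cd200 2.41, and 3.64 without zinc-fed C57BL/6 replicate 1. The call of Cd200 ended without zinc-fed C57BL/6 replicate 2 (adjusted p = 0.118) or 3 (0.179) or zinc-fed pMT-10 replicate 2 (0.0592) or 3 (0.219), and also with only these 2 groups fitted (adjusted p = 0.168), with the 12 libraries of zinc-fed mice fitted (0.0522) or by limma-voom (0.07). Btla, Cd96, Lair1 and Nt5e were not called, at log2 0.47, -0.18, 0.04 and 0.07, and Cd160 stood at 3.15 against 0.86 CPM (adjusted p = 0.103). Other settings gave a call with library size as the only scaling for Btla (adjusted p = 0.0421) or by DESeq2 for Btla (0.0333) and Cd160 (0.0324). Of 11 costimulatory receptor genes, 4 rose and 1 fell. Tnfrsf9 (4-1BB) stood at 64.1, 45.6 and 78.3 against 25.4, 25.5 and 23.5 CPM (log2 1.34), and the SLAM family genes Slamf1 and Slamf7 rose by 1.74 and 1.62, while Cd28 stood at 203 against 202 CPM.

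Of 21 effector and exhaustion transcription factors, 11 rose and none fell (median log2 0.69). Tox2, a relative of TOX, stood at 27.3, 7.91 and 34.6 against 0, 0 and 0.535 CPM (log2 6.73, SE 0.77, adjusted p = 2.34e-05). Prdm1 (BLIMP-1), which drives terminal effector differentiation, stood at 49.7, 14.2 and 52.3 against 2.57, 1.5 and 2.48 CPM (log2 4.13, SE 0.53). Bhlhe40 stood at 106, 54.6 and 148 against 4.81, 10.4 and 14.4 CPM (log2 3.37), and Id2, an inhibitor of E proteins needed by effector cells, at 148, 123 and 199 against 37.2, 32 and 44.2 CPM (log2 2.05, SE 0.18, adjusted p = 3.54e-07). The groups did not overlap in any of these. Nr4a2 and Maf, the latter a factor that promotes Il10 transcription, rose by 3.28 and 2.43. Zeb2, Irf4, Batf, Ikzf3 and Tox rose by log2 0.69 to 1.92. Tox, singled out after its values were seen, stood at 238, 148 and 244 against 129, 123 and 137 CPM. Its call (adjusted p = 0.0223) ended without zinc-fed C57BL/6 replicate 1 (adjusted p = 0.0601), 2 (0.0539) or 3 (0.0517) or zinc-fed pMT-10 replicate 1 (0.0955) or 3 (0.101).

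The lineage factors of type 1 and cytotoxic cells were not among the genes called. Tbx21 (T-bet) averaged 66.3 against 64.8 CPM, Runx3 averaged 406 CPM in each group, and Eomes stood at 144, 117 and 202 against 78.9, 102 and 111 CPM (log2 0.66, SE 0.26, adjusted p = 0.117), which was called with no filter on low counts (adjusted p = 0.00316). The early response factors Nr4a1, Nr4a3 and Egr2 were not called either, at log2 0.05, 0.03 and 0.11.

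**Figure D3:**
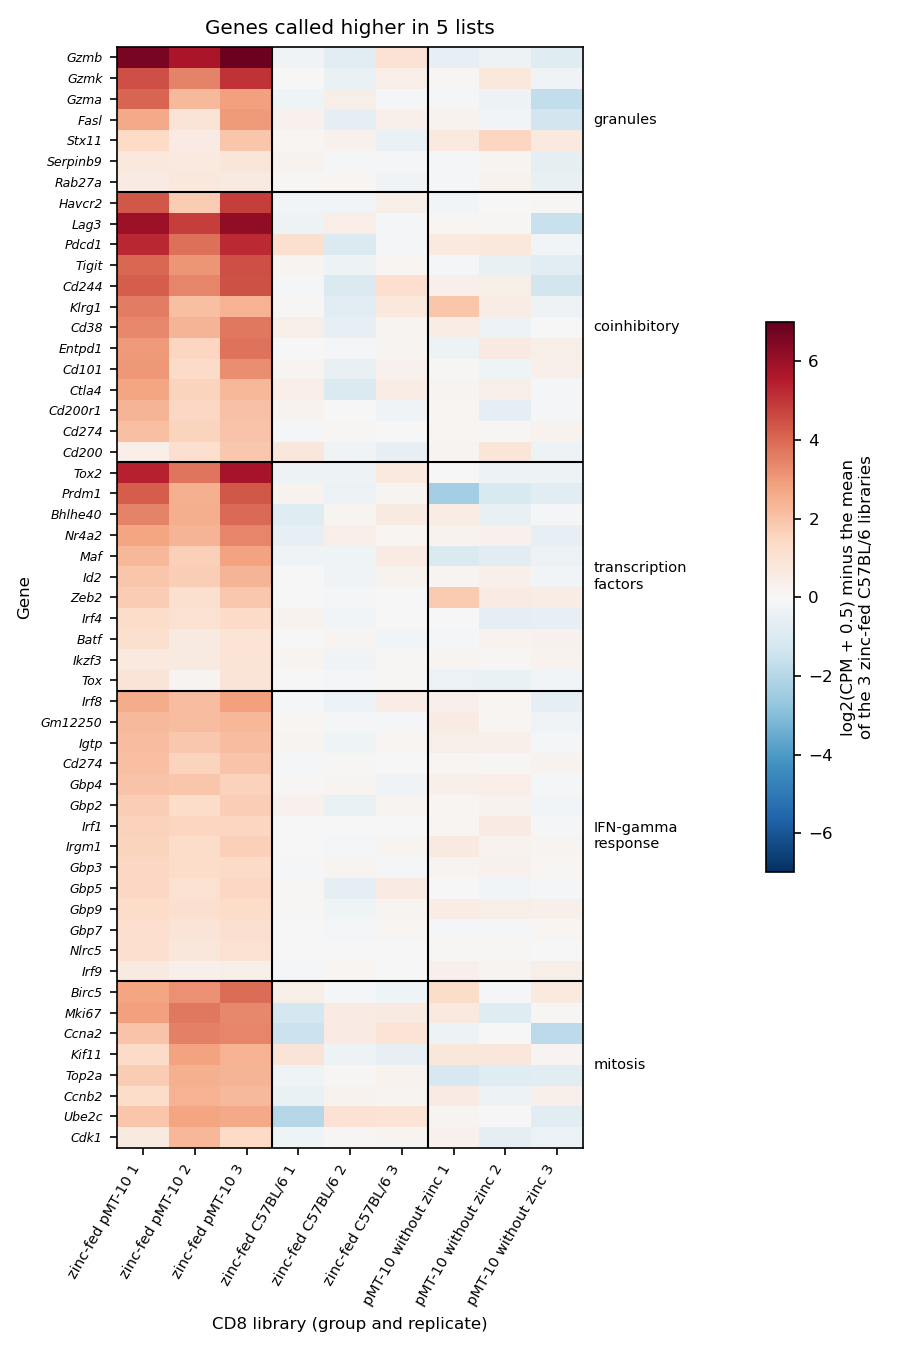
Rows are the genes called higher in 5 lists and columns are 9 CD8 libraries. Colour gives log2(CPM + 0.5) minus the mean of the 3 zinc-fed C57BL/6 libraries. Zinc-fed pMT-10 replicate 2 is paler than replicates 1 and 3 for most granule, coinhibitory and transcription factor genes, and darkest of the group for 7 of 8 mitosis genes, all but Birc5.

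Of 18 mitosis genes tested, 8 rose and none fell (median log2 1.84), and all 18 had a log2 difference above 0. Mki67, the proliferation marker Ki-67, stood at 15.2, 27.3 and 21.4 against 0.429, 2.71 and 2.81 CPM (log2 3.4, SE 0.44, adjusted p = 3.35e-05). Top2a, which untangles DNA, stood at 28.4, 47.2 and 42.5 against 6.26, 8.32 and 9.37 CPM (log2 2.3), and Birc5 (survivin) at 16.3, 22.2 and 36.1 against 2.75, 1.78 and 1.54 CPM (log2 3.63). The groups were apart in all 3. Ccna2, Ccnb2 and Ube2c rose by 3.01, 2.26 and 2.15, the ratio of the Ccna2 means being 8.19, and 12.4 without zinc-fed C57BL/6 replicate 3. Cdk1 (log2 1.81) was lost without zinc-fed C57BL/6 replicate 1 (adjusted p = 0.0856), 2 (0.0513) or 3 (0.0591) or zinc-fed pMT-10 replicate 2 (0.155), and Kif11 (log2 2.74) without zinc-fed C57BL/6 replicate 2 (adjusted p = 0.087) or 3 (0.124) or zinc-fed pMT-10 replicate 2 (0.0873) or 3 (0.0607). The ratio of means of Cdk1 was 3.54, and 2.31 without zinc-fed pMT-10 replicate 2. That of Kif11 was 6.66, and 15.7 without zinc-fed C57BL/6 replicate 1. Of 21 genes of G1 phase and DNA replication, 3 rose (14.3%, beside 5.81% of all genes) and none fell (median log2 0.16). They were E2f2 (20.2, 18.4 and 17.3 against 6.44, 5.7 and 5.15 CPM, log2 1.69), Rrm2 (log2 2.73) and Tk1 (log2 2.07), while the replication helicase genes Mcm2 to Mcm7 lay between log2 -0.04 and 0.35. The ratio of means of Rrm2 was 6.58, and 4.01 without zinc-fed pMT-10 replicate 2, and that of Tk1 4.11, and 6.62 without zinc-fed C57BL/6 replicate 2. Of the dividing-cell genes named, calls also ended with only these 2 groups fitted for Cdk1 (adjusted p = 0.0645), Kif11 (0.0549), Ube2c (0.078) and Tk1 (0.0569), with the 12 libraries of zinc-fed mice fitted for Kif11 (0.0505) or by limma-voom for Cdk1 (0.0866).

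The libraries of zinc-fed pMT-10 did not share 1 order across these groups of genes. Replicate 2 was the lowest of its group for 37.0% of all autosomal genes tested and for 48.6% of the genes called higher. Within lists it was lowest for 12 of 13 coinhibitory genes, 6 of 7 granule genes and 12 of 14 interferon-gamma response genes called higher. For mitosis genes replicate 2 was the highest in 7 of 8 and replicate 1 the lowest in all 8. Replicates have no order in the design, and no label separates these mice.

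Of 23 naive T cell genes tested, 5 fell and none rose (median log2 -0.42), and 1 of 23 had a log2 difference above 0. Ccr9, a gut-homing receptor of young CD8 T cells, stood at 29.9, 19.7 and 18.4 against 87.6, 53.7 and 79.6 CPM (log2 -1.7, SE 0.33, adjusted p = 0.00208). Il7r, the survival receptor of naive and memory cells, stood at 569, 614 and 510 against 1090, 894 and 1090 CPM (log2 -0.86, SE 0.25, adjusted p = 0.0367). Tcf7 (TCF-1), which maintains naive and stem-like cells, stood at 2080, 2320 and 1710 against 3010, 3430 and 3210 CPM (log2 -0.66, SE 0.2, adjusted p = 0.0447). Lef1 and Id3 fell by 0.82 and 0.77 on the log2 scale. The groups did not overlap in Ccr9, Il7r or Tcf7, and the calls were near the threshold. Those of Tcf7, Il7r and Id3 ended in each of the 6 fits without 1 library (highest adjusted p 0.16, 0.12 and 0.115), and that of Lef1 without zinc-fed C57BL/6 replicate 1 (0.0552) or 3 (0.103) or zinc-fed pMT-10 replicate 2 (0.0986) or 3 (0.0839). They ended too with the 12 libraries of zinc-fed mice fitted for Tcf7 (adjusted p = 0.0769), Il7r (0.097), Id3 (0.0506) and Lef1 (0.0554) or with library size as the only scaling for Tcf7 (0.0664), Il7r (0.0528) and Id3 (0.0523). Ccr7 stood at 1160 against 1600 CPM and S1pr1 at 893 against 1580 CPM with adjusted p of 0.594 and 0.21. Neither was called, but other settings gave a call with only these 2 groups fitted for S1pr1 (adjusted p = 0.0315) or with no filter on low counts for Ccr7 (0.0469) and S1pr1 (7.97e-06).

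Trafficking receptors split. Of 18 tested, 4 rose and 5 fell. Ptger4, a prostaglandin E2 receptor, rose by 0.92. Ccr2 rose by 1.43, a call lost without zinc-fed pMT-10 replicate 3 (adjusted p = 0.0586), and Ccr4 by 2.16, lost without zinc-fed C57BL/6 replicate 1 (adjusted p = 0.0671) or 3 (0.0954) or zinc-fed pMT-10 replicate 1 (0.0723) or 3 (0.081). Cxcr4, which retains cells in the marrow, stood at 107, 111 and 84.4 against 169, 200 and 189 CPM (log2 -0.88, SE 0.19, adjusted p = 0.00542), without overlap. Cxcr5, the follicle receptor, fell by 0.82 on the log2 scale. Gpr183 and Ccr10 fell as well, Ccr10 from 0.172, 1.22 and 1.07 CPM to no count. The call of Gpr183 ended without zinc-fed C57BL/6 replicate 2 (adjusted p = 0.0532) or zinc-fed pMT-10 replicate 1 (0.0536) or 3 (0.0559), and that of Ccr10 without zinc-fed pMT-10 replicate 1 (adjusted p = 0.0511) or 3 (0.0548). Of 13 integrin genes, 2 rose and 1 fell. Itgae (CD103), which binds E-cadherin on epithelium, stood at 57.2, 51.5 and 44.7 against 89.1, 107 and 84.5 CPM (log2 -0.87, adjusted p = 0.00208). Itgal and Itgb2, the chains of LFA-1, rose by 0.8 and 0.63. The call of Itgal ended without zinc-fed pMT-10 replicate 3 (adjusted p = 0.105) and that of Itgb2 without zinc-fed C57BL/6 replicate 1 (adjusted p = 0.134), 2 (0.11) or 3 (0.0845) or zinc-fed pMT-10 replicate 1 (0.108) or 3 (0.27). Further settings ended calls with only these 2 groups fitted for Ccr4 (adjusted p = 0.137) and Itgb2 (0.0859), with the 12 libraries of zinc-fed mice fitted for Itgb2 (0.088), without robust estimation for Itgb2 (0.0535) or by limma-voom for Ccr4 (0.296), Ccr10 (0.0558) and Itgb2 (0.0604).

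Among surface antigens of activation and memory, Ly6a (Sca-1) had the lowest adjusted p of all genes. It stood at 657, 506 and 722 CPM in zinc-fed pMT-10 and at 46.9, 43.6 and 58.2 CPM in zinc-fed C57BL/6 (log2 3.66, SE 0.2, adjusted p = 3.6e-10). Of the 14 genes tested in that list, 4 rose and 1 fell. Cd44, the usual memory marker, stood at 146 against 147 CPM and was not called. Rgs1, which blunts chemokine receptor signals, stood at 62.8, 43.9 and 69.6 against 10.4, 12.3 and 7.23 CPM (log2 2.57), and Rgs16, of the same family, at 20.8, 5.46 and 22.7 against 0.686, 0.561 and 0.87 CPM (log2 4.49, SE 0.57, adjusted p = 4.16e-05). Cd7 rose by 1.87, a call lost without zinc-fed C57BL/6 replicate 3 (adjusted p = 0.0638) or zinc-fed pMT-10 replicate 3 (0.0516).

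Of 21 receptor genes for gamma-chain cytokines, IL-12, IL-18 and interferon gamma, 3 rose and 1, Il7r, fell. Il12rb1, the shared chain of the IL-12 and IL-23 receptors, stood at 98.5, 77.2 and 152 against 14.6, 18.8 and 19.3 CPM (log2 2.64, SE 0.23, adjusted p = 3.07e-07). Il15ra and the kinase gene Jak3 rose by 1.59 and 1.36. Il12rb2, the chain that completes the IL-12 receptor, stood at 16.1 against 19.4 CPM, and Ifngr1 at 518 against 511 CPM, neither called. Of 17 NK receptor genes 2 rose, Klrb1f (14.3, 31.9 and 25.8 against 0.858, 3.93 and 5.02 CPM) and Klrg1, and 2 fell, Klra1 and Klrc2. NK cell markers summed lower in zinc-fed pMT-10, with the values given above, and the call of Klra1 ended without zinc-fed C57BL/6 replicate 2 (adjusted p = 0.143) or zinc-fed pMT-10 replicate 1 (0.123) or 3 (0.112), that of Klrc2 without zinc-fed C57BL/6 replicate 2 (adjusted p = 0.155) or 3 (0.106) or zinc-fed pMT-10 replicate 1 (0.166) or 3 (0.0749) and with only these 2 groups fitted (adjusted p = 0.0774) or with the 12 libraries of zinc-fed mice fitted (0.0757). The part of NK cells in these was not tested.

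Of 18 genes of the T cell receptor complex and proximal signalling, none rose and 1 (5.6%) fell (median log2 0.03). That was Thy1, at 3490, 2940 and 3790 against 5100, 4280 and 5560 CPM (log2 -0.55, adjusted p = 0.0175), lost without zinc-fed C57BL/6 replicate 3 (0.0977) or zinc-fed pMT-10 replicate 2 (0.0935). Cd8b1 fell by 0.54 on the log2 scale (adjusted p = 0.0314, lost without zinc-fed C57BL/6 replicate 1 (adjusted p = 0.0699) or 3 (0.114) or zinc-fed pMT-10 replicate 2 (0.132) or 3 (0.0655)), while Cd8a stood at 2370 against 2410 CPM. Of 12 glycolysis genes 2 (16.7%) rose, Pfkp (lost without zinc-fed C57BL/6 replicate 3 (adjusted p = 0.0518)) and Slc16a3 (lost without zinc-fed C57BL/6 replicate 3 (adjusted p = 0.114) or zinc-fed pMT-10 replicate 3 (0.173)). Among 17 apoptosis regulators 3 rose and 1 fell. Bcl2l1 (BCL-XL) fell from 41.6, 83.4 and 61.8 to 21.8, 37.2 and 29.2 CPM (log2 -1.08, adjusted p = 0.00386), while Bcl2 and Mcl1 were not called (log2 0.1 and -0.05). Fas, a death receptor gene, rose by 0.8, a call lost without zinc-fed C57BL/6 replicate 2 (adjusted p = 0.123) or 3 (0.0859) or zinc-fed pMT-10 replicate 2 (0.142) or 3 (0.0994). Calls of these genes were lost as well with only these 2 groups fitted for Thy1 (adjusted p = 0.0654), Cd8b1 (0.0509), Slc16a3 (0.131) and Fas (0.0859), with the 12 libraries of zinc-fed mice fitted for Cd8b1 (0.0511), with library size as the only scaling for Cd8b1 (0.0547) or by limma-voom for Slc16a3 (0.0714) and Fas (0.0635).

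**Figure D4:**
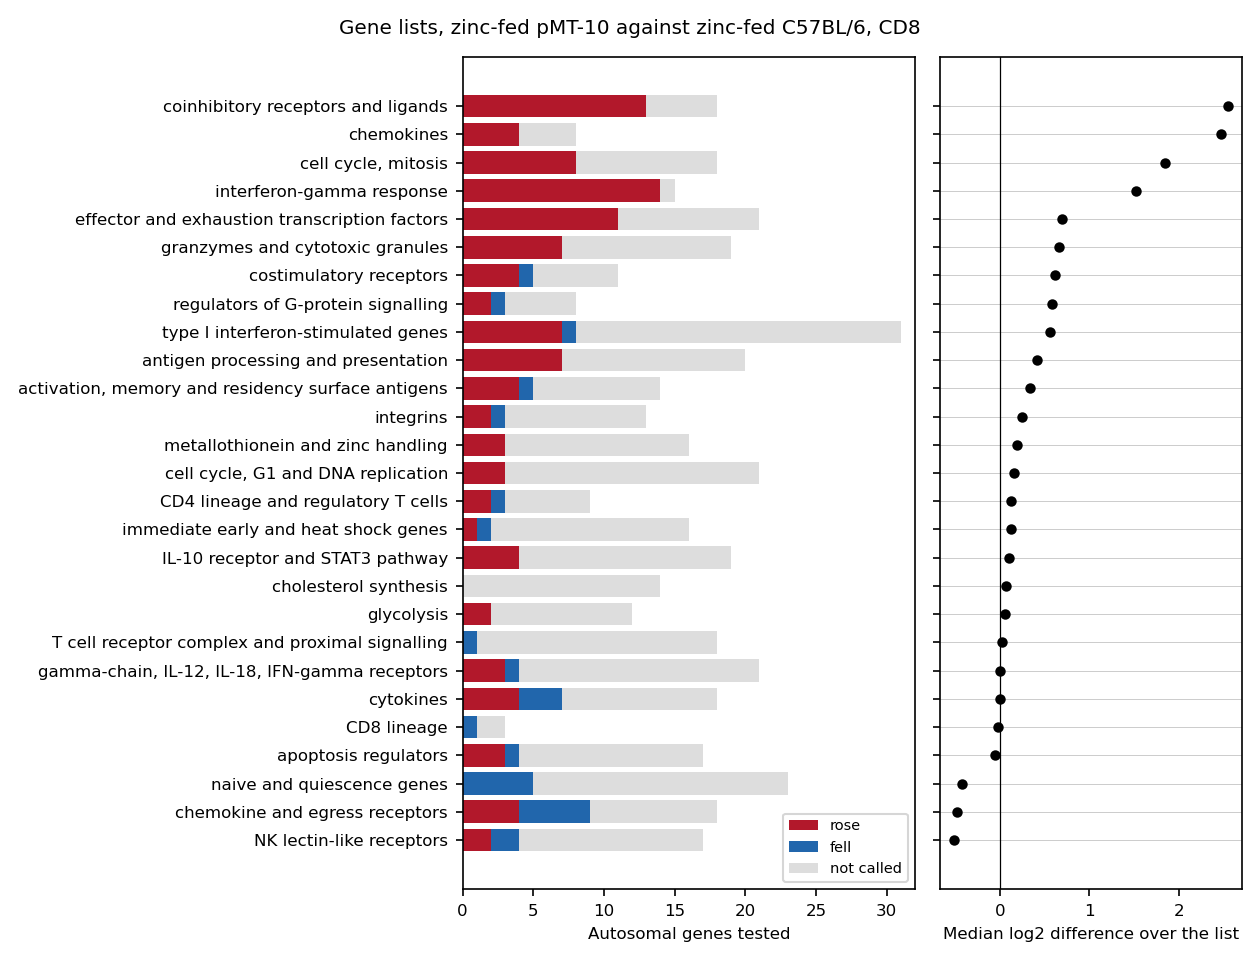
Left, the autosomal genes tested in each of 27 functional lists, as genes that rose, fell or were not called in pMT-10 against C57BL/6, both on zinc. Right, the median log2 difference of each list, to be read against -0.0066 over all autosomal genes. Coinhibitory, chemokine, mitosis and interferon-gamma response lists have medians from 1.52 to 2.55, and 14 of 15 interferon-gamma response genes rose.

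Outside the lists, several genes went from near 0 to clear counts. Map6, a microtubule-stabilising protein gene, had no count in zinc-fed C57BL/6 and stood at 4.69, 2.26 and 4.17 CPM in zinc-fed pMT-10, at least 47.0-fold higher than 3 counts over the control group would give. Pkdcc, a secreted kinase gene, and Cass4, an adhesion scaffold gene, also had no count in the controls, at 5.46, 2.92 and 9.81 CPM and 4.78, 3.29 and 9.51 CPM in zinc-fed pMT-10 (at least 79.1-fold and 76.3-fold). Adgrg1 (GPR56), a receptor of cytotoxic lymphocytes, stood at 19.2, 4.24 and 13.8 against 0.172, 0 and 0 CPM. Gm14005, the locus of the long non-coding RNA Morrbid, stood at 9.13, 3.58 and 10 against 0.0858, 0 and 0.134 CPM. The gene 2900026A02Rik, whose role is not described here, reached 125, 56.9 and 164 against 0, 0.28 and 1.27 CPM (adjusted p = 8.15e-07), with the size of its ratio resting on the highest of the controls. Gcnt1, which builds the core 2 glycans bound by selectins, stood at 19.8, 3.95 and 34.1 against 0.601, 0.935 and 0.335 CPM. Stk39, a kinase of ion transport, was among the most even, at 85.3, 86.4 and 90.9 against 30.7, 29.7 and 30.1 CPM (log2 1.54, adjusted p = 4.68e-07).

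Rasgrf1, Ica1, Ttc16, Ociad2, Hdac11, Atcay and Itgad completed the 15 highest with Nefl and Slco2a1. Of these, Rasgrf1 was not called by limma-voom (adjusted p = 0.0588). Nefl stood at 18.6, 1.13 and 2.27 CPM and lost its call without zinc-fed C57BL/6 replicate 3 (adjusted p = 0.0638) or by limma-voom (adjusted p = 0.0534), and Slco2a1 at 10.8, 3.11 and 2.56 CPM lost it without zinc-fed C57BL/6 replicate 1 (adjusted p = 0.0557), 2 (0.0576) or 3 (0.0924) or zinc-fed pMT-10 replicate 1 (0.0614). Of the lowest genes, Tbc1d30 stood at 2.99, 3.29 and 2.12 against 15.3, 11.8 and 9.57 CPM (log2 -2.13, SE 0.35, adjusted p = 0.000331) and Lrrc1 at 10.8, 14.1 and 11.6 against 30.8, 24.7 and 40.5 CPM (log2 -1.4, adjusted p = 0.000264). No overlap between the groups was a condition for choosing both. Fcer1g, an adaptor of NK and myeloid receptors, stood at 4.69, 11.2 and 7.83 against 15.6, 41.9 and 19.5 CPM, a call lost without zinc-fed C57BL/6 replicate 2 (adjusted p = 0.173) or zinc-fed pMT-10 replicate 1 (0.137) or 3 (0.0895) or with the 12 libraries of zinc-fed mice fitted (adjusted p = 0.0669).

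A few of these genes were also called between pMT-10 without zinc and zinc-fed C57BL/6. pMT-10 without zinc against zinc-fed C57BL/6 gave 6 calls (0.0556%), 2 higher (0.0185%) and 4 lower (0.037%). DESeq2 called 35, and without zinc-fed C57BL/6 replicate 3 there were 3 calls. That comparison also differs in zinc, chip and sex. Y-linked genes summed to 0 CPM in each library of pMT-10 without zinc, where Xist stood at 597 to 778 CPM. Zinc-fed pMT-10 showed the same pattern and zinc-fed C57BL/6 the opposite one, with the values given above. Rell1 (chromosome 5, 63889337 to 63969020) stood at 4.78, 5.93 and 5.05 CPM in zinc-fed pMT-10, 4.13, 4 and 6.09 CPM in pMT-10 without zinc and 14, 21.1 and 19 CPM in zinc-fed C57BL/6. Next to it on the chromosome, 5830416I19Rik (64044973 to 64050226) had no count in either pMT-10 group and 2.32, 4.3 and 3.75 CPM in zinc-fed C57BL/6. Nnt, the mitochondrial transhydrogenase gene in which the C57BL/6J substrain is known to carry a deletion, stood at 31.4, 26.9 and 33.2 CPM in zinc-fed pMT-10, 36.1, 22.4 and 34.4 CPM in pMT-10 without zinc and 13.7, 13.7 and 12.4 CPM in zinc-fed C57BL/6. For Rell1, 5830416I19Rik and Nnt, all libraries of both pMT-10 groups lay on the same side of every C57BL/6 library. Ide was lower in both pMT-10 groups (219 and 159 against 321 CPM on average; its call in the zinc-fed comparison ended without zinc-fed pMT-10 replicate 2 (adjusted p = 0.0525)), Slc4a8 was higher in both (9.82 and 3.19 against 0.421 CPM), and Neb averaged 5.07 and 0.0883 against 1.1 CPM. These 6 genes were all called between pMT-10 and C57BL/6 on zinc. None of the 27 functional lists had a member called between the control groups. With 6 of 10801 genes called (0.0556%), lists of this size are too small for that to be a result about them.

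Against pMT-10 without zinc, which shares the zinc-fed pMT-10 libraries but lies on another chip, 857 genes were called (7.93%), 563 higher (5.21%) and 294 lower (2.72%). Without replicate 3 of pMT-10 without zinc there were 553 calls. In that comparison 13 coinhibitory, 13 interferon-gamma response, 10 transcription factor, 7 granule, 7 mitosis and 5 chemokine genes rose and none of these lists had a gene that fell, beside 13, 14, 11, 7, 8 and 4 against zinc-fed C57BL/6. Gzmb differed by log2 7.15 there and 6.3 against zinc-fed C57BL/6, Ifng by 4.73 and 4.42, Pdcd1 by 4.56 and 4.74 and Ly6a by 3.85 and 3.66. Tcf7 differed by -0.46 (adjusted p = 0.185) and -0.66, and Zeb2 by 0.57 (adjusted p = 0.475) and 1.92. For a single gene, the difference between these 2 comparisons is that of pMT-10 without zinc from zinc-fed C57BL/6, since the zinc-fed pMT-10 libraries are shared. That contrast gave the 6 calls above, and Gzmb, Ifng, Pdcd1, Ly6a, Tcf7 and Zeb2 were not among them. Differences between the list counts were not tested.

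The same contrast in CD4 cells of the marrow was set beside that in CD8 cells, and the difference of the differences was tested. It was called for 603 genes (5.58%), with the CD8 value above the CD4 value for 373 (3.45%) and below it for 230 (2.13%). Scaling by library size alone moved the median of this contrast from 0.041 to 0.2 on the log2 scale and gave 744 calls, 625 above and 119 below, so its split depends on scaling. Leaving out 1 library gave 252 calls (without zinc-fed pMT-10 CD4 replicate 1) to 815, with 322, 364, 344, 397 and 374 calls without zinc-fed C57BL/6 CD4 replicate 1 or 2, zinc-fed C57BL/6 CD8 replicate 3, zinc-fed pMT-10 CD8 replicate 2 or zinc-fed pMT-10 CD4 replicate 3. Of the 18 coinhibitory genes, 10 differed. Tigit changed by log2 4.26 in CD8 and 0.9 in CD4 cells (difference 3.36, adjusted p = 0.000327), Ctla4 by 2.35 and -1.25 (difference 3.6, adjusted p = 0.000107) and Pdcd1 by 4.74 and 1.4 (difference 3.34, adjusted p = 0.00696). Tox2 (difference 4.82), Csf1 (3.51), Maf (2.23) and Ly6a (1.74) also changed more on the log2 scale in CD8 cells. Eomes and Nkg7 went the other way, by 0.66 in CD8 against 4.05 in CD4 cells (difference -3.39, adjusted p = 5.36e-05) and by 0.81 against 3.82 (difference -3.01, adjusted p = 0.0013). These log2 values start from unlike control levels. From zinc-fed C57BL/6 to zinc-fed pMT-10, mean Tigit went from 1.98 to 38.4 CPM in CD8 and from 82.3 to 154 CPM in CD4 cells. Ly6a went from 49.6 to 628 and from 524 to 1990 CPM. Eomes went from 97.3 to 154 and from 20.2 to 335 CPM, and Nkg7 from 718 to 1260 and from 146 to 2050 CPM. A larger log2 difference is therefore not always a larger difference in CPM. Ifng (4.42 and 3.74), Gzmk (4.49 and 4.4), Fasl (2.46 in each), Ccl3 (5.68 and 5.79) and Id2 (2.05 and 2.19) were not called as different, with adjusted p from 0.558 to 1.0.

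**Figure D5:**
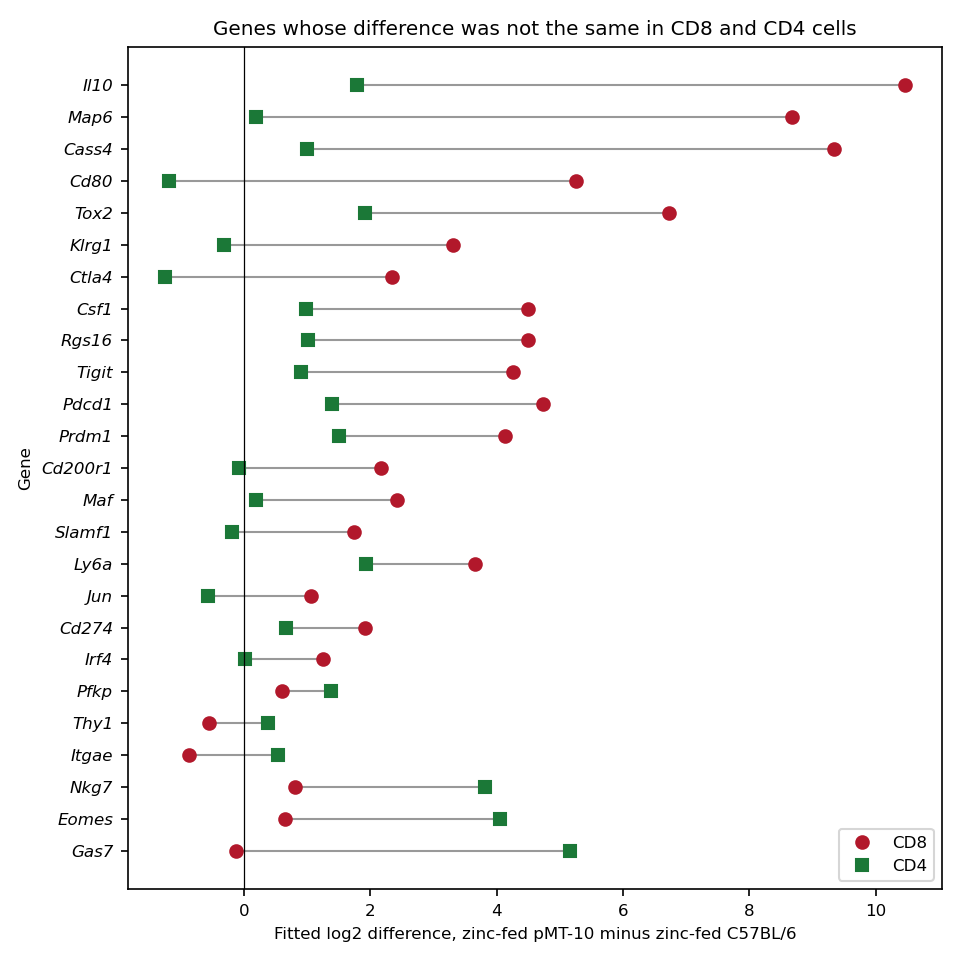
Fitted log2 difference between pMT-10 and C57BL/6 on zinc in CD8 (circles) and CD4 cells (squares) for 25 genes whose difference of differences was called. Tigit, Pdcd1, Ctla4 and Tox2 lie further right in CD8 cells, and Eomes, Nkg7 and Gas7 further right in CD4 cells.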

How the data were processed

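RNA of bone marrow CD8 and CD4 T cells sorted by flow cytometry was read with an Ion AmpliSeq targeted panel. The authors deposited raw read counts per gene, 1 column a library, with build mm10 per the submitters' processing notes. The sources used here do not name the aligner or counter. Libraries were grouped by their labels, 3 in each of 6 groups. Low-count genes were removed with filterByExpr, counts were scaled by TMM and all 18 libraries were fitted with edgeR 4.0.16 (quasi-likelihood, robust, R 4.3.3), with Benjamini-Hochberg adjustment over all genes tested. SE is the log2 difference divided by the square root of F. Where labels do not say that mice were separate, p-values measure the spread between these samples. DESeq2 1.42.0, limma-voom 3.58.1, other scalings, filters and left-out libraries were tried, and the test was checked on simulated data. Sex-linked genes and symbols without a chromosome were not reported.

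The gene groups and the genes named were chosen with earlier results of these data known. Named were list members, the largest called changes first, then the 15 highest and 15 lowest called genes with a mean of at least 5 CPM and no overlap, the 10 with the lowest adjusted p and the 10 largest and smallest CD8 minus CD4 differences. Not all of these are printed, and some further members were named after their values were seen. Results for some genes are not reported here.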

Additional observations from a re-analysis of the deposited data

Results flagged for a closer look

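The log2 difference of pMT-10 from C57BL/6 mice on zinc was not the same size in CD8 and CD4 cells for 50 genes named in the report or its plots, by edgeR's test of the difference of the differences (adjusted p from 5.36e-05 to 0.0496). Values in parentheses are the CD8 minus the CD4 log2 difference. The CD8 value was the higher for the coinhibitory genes Klrg1 (3.63), Ctla4 (3.6), Tigit (3.36), Pdcd1 (3.34), Cd200r1 (2.24), Entpd1 (2.17), Cd200 (2.02), Nt5e (1.67) and Cd274 (1.25), and the lower for Lair1 (-1.69) and Nkg7 (-3.01), the latter a granule gene.

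Among granule genes the CD8 value was higher for Gzma (3.62) and Gzmb (2.29) and lower for Prf1 (-1.99). Of the transcription factors, Tox2 (4.82), Prdm1 (2.63), Maf (2.23) and Irf4 (1.24) had the higher log2 difference in CD8 cells. Runx3 (-1.57) and Eomes (-3.39) had the higher one in CD4 cells. The naive and survival genes Id3 (1.98) and Bcl2 (1.1) had the lower value in CD4 cells, where Id3 differed by -2.74 on the log2 scale.

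Interferon-gamma response genes with a higher CD8 value were Gm12250 (1.28), Igtp (1.16), Gbp4 (0.89) and Gbp3 (0.82), and Cd74 differed by 1.79. Other genes with a higher CD8 value were Il10 (8.68), Map6 (8.47), Cass4 (8.34), Cd80 (6.44), 2900026A02Rik (5.26), Slc4a8 (4.47), Atcay (4.37), Ica1 (4.2), Ttc16 (4.03), Ccr4 (3.54), Csf1 (3.51), Rgs16 (3.48), Gcnt1 (3.4), Birc5 (2.11), Slamf1 (1.92), Neb (1.83), Ly6a (1.74), Jun (1.63) and Rgs1 (1.32), and Pfkp (-0.78), Thy1 (-0.93), Itgae (-1.41) and Gas7 (-5.28) had a lower one. Il10, Map6 and Cass4 had no count in the CD8 libraries of zinc-fed C57BL/6 mice, so the sizes of their values depend on the prior count of the fit and are neither measured sizes nor bounds, and Cd80 and Ica1 had 3 counts or fewer there.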

How the results depend on the processing

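No paired analysis was possible because the labels give the mice no shared replicate numbers. With only the groups compared in the fit, calls were 570 for the main comparison, 400 for the CD8 minus CD4 difference (400 also with the 12 libraries of zinc-fed mice) and 3 between the control groups. DESeq2 gave 992 and no filter on low counts 1010 calls for the CD8 minus CD4 difference, and 35 and 96 between the control groups. Leaving out 1 library gave 571 to 885 calls for the main comparison, 354 to 476 at 2-fold or more, 252 to 815 for the CD8 minus CD4 difference, 553 to 739 against pMT-10 without zinc and 3 to 8 between the control groups. The cause of these shifts was not tested. Fits with only the groups compared, with the 12 libraries of zinc-fed mice or without 1 library also rest on fewer libraries. Of 141 named genes that were called, 106 stayed called without each library in turn and 115 under each other setting, and none changed direction in the settings run. With 3 libraries a side, 54.5% of genes changed 2-fold and 78.8% of those changed 4-fold were recovered in simulated counts of 11077 genes, so changes of either size can be missed.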
